A study of Homo sapiens with 31 samples.

Results

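The mitochondrial ribosomal protein genes are the nuclear genes whose products, together with ribosomal RNA made in the organelle, form the ribosome that translates inside mitochondria. They were taken as every gene name that begins with MRPL or MRPS, followed by a number and at most 1 of the letters A to C. The pattern found 78 of 56269 gene names, 49 with MRPL (large subunit by symbol) and 29 with MRPS (small subunit by symbol), on 21 chromosomes. Symbol and place in the human mitochondrial ribosome differ for 3 of them: the products of MRPS30 and MRPS18A sit in the large subunit, and MRPS36 encodes a part of the 2-oxoglutarate dehydrogenase complex. Poly(A) RNA had been sequenced from MCF10A, a non-transformed human breast epithelial cell line that stops cycling without growth factors. Cells starved for 2 to 3 days (0 h) were released into full medium with 1 µM palbociclib, an inhibitor of the kinases CDK4 and CDK6, or with 0.1% DMSO, its vehicle. The 31 libraries fall into 11 groups: palbociclib at 9, 12, 15 and 24 h, DMSO at 3, 6, 9, 12, 15 and 24 h, and 0 h, which had received neither. Each group has 3 libraries, and both 24 h groups have 2, which are replicates 1 and 3.

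The mitochondrial ribosome makes only the few membrane proteins that mitochondrial DNA encodes, all of them parts of the respiratory chain and ATP synthase. All of its proteins are made in the cytosol and imported, so its assembly needs nuclear transcripts in step with mitochondrial ribosomal RNA. Some of these proteins have counterparts in bacterial ribosomes, and others are found only in mitochondrial ribosomes.

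The libraries held 10342358 to 20878364 gene counts, of which transcripts of mitochondrial DNA took 2.48% to 4.38%. All 78 members passed the filter on low counts and were among the 15787 genes tested. All 12 epithelial markers had counts in every library. The 13 markers of other cell types summed to 20.5 to 72.9 CPM, here scaled by library totals alone. Of these, CD3E and COL3A1 were at 0 in 29 of the 31 libraries. Others had counts in every library: CD14 (65 to 698 counts), COL1A1 (133 to 481), PECAM1, MYH11 and PDGFRB. The sum of the 13 was 21.1 to 22.1 CPM at DMSO 24 h, against 65.9 to 72.9 CPM at 0 h. That of the epithelial markers was 21500 to 22090 CPM at DMSO 24 h, against 14830 to 15460 CPM at 0 h. The part of either sum in the results was not tested. CDKN2A and CDKN2B, which this cell line is known to lack, had no count in any library. Libraries of a group differed along a main axis that held 27.5% of the variance within groups, and 75 of the 78 members (96.2%) loaded on it in the same direction, as did 56% of all genes tested. Averaged over members, single libraries lay 0.100 below to 0.117 above their group on the log2 scale, with replicate 2 high and replicate 3 low at 0 h and at DMSO 3 to 15 h. Whether replicates came from separate cultures is not stated in the labels, and a p-value here reflects only how far these libraries spread, which may be technical. Counts give shares of the mRNA sequenced, and fewer cells of a type and less RNA per cell cannot be told apart. Reads were counted without regard to strand, and 25 members share at least 10% of their exonic bases with another annotated gene. This share is given below for each such member that is named.

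Promoter sequence is shown for 6 members chosen by hand: 4 that rose strongly (MRPL17, MRPL20, MRPL3 and MRPS10) and a pair of paralogs, MRPS18A, which rose, and MRPS18B, which fell. The choice does not stand for the other members. MRPL12, which also rose strongly, is not shown, and its promoter held none of the 6 motifs described below. Each line gives up to 120 bases that lie before the start of the RefSeq transcript and outside exons of the GENCODE annotation, on the gene's own strand, 5′ to 3′, from RefSeq (GRCh38.p14). Capitals mark CGCATGCG, the core bound by NRF1, or CCGGAAG, the core bound by ETS factors such as GABPA; NRF1 and GABPA are known activators of nuclear genes for mitochondria. The stretches are chr11:6683402-6683521 (minus strand) for MRPL17, chr1:1407314-1407433 (minus) for MRPL20, chr3:131502984-131503103 (minus) for MRPL3, chr6:42217866-42217985 (minus) for MRPS10, chr6:43687792-43687911 (minus) for MRPS18A and chr6:30617590-30617708 (plus) for MRPS18B.
MRPL17: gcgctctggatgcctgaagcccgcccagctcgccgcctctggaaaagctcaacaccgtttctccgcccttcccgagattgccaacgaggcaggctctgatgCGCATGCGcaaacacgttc
MRPL20: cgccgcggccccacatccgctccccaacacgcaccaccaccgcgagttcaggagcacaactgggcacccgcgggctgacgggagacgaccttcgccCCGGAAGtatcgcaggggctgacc
MRPL3: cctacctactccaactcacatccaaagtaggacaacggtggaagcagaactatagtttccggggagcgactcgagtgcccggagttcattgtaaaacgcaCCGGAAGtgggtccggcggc
MRPS10: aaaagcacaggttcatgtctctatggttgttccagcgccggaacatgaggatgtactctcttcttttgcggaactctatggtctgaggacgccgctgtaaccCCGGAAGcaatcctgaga
MRPS18A: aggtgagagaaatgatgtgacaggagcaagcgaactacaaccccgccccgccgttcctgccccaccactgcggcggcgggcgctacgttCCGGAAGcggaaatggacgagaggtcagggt
MRPS18B: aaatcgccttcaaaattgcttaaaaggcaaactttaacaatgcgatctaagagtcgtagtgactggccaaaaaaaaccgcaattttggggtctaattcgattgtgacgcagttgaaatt

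Counted from the RefSeq start, which need not be the gene's outermost base in the files' annotation, the NRF1 letters in MRPL17 begin 80 bases upstream, and the ETS letters begin 44 bases upstream in MRPL20, 32 in MRPL3, 22 in MRPS10 and 31 in MRPS18A. The MRPS18A stretch covers 120 to 1 bases before the start and the MRPS18B stretch 250 to 132, so the windows of the pair are not the same. The MRPS18B stretch holds no capitals, and the rest of its promoter held no NRF1 or ETS letters either. The promoters of both paralogs hold the YY1 letters described next, after the start and not printed. RefSeq promoters, which run from 250 bases before the start to 50 after it, were found for 69 members, and 6 motifs were searched in them on both strands. The ETS letters were in 29 of the 69 promoters (42.0%), against 14.2% of 15843 protein-coding promoters, and AAGATGGCG, the letters bound by YY1, were in 13 (18.8%), against 2.74%. At least 1 of these 2 motifs was in 38 member promoters (55.1%), against 16.3% of all, and in no member did their letters overlap. The other motifs were found at shares closer to those of all promoters. NRF1 letters were in 3 member promoters (MRPL17, MRPL22 and MRPS18C; 4.35%), against 2.88%. The E-box CACGTG bound by MYC was in 8.70% of member promoters, against 8.88%, the SP1 letters GGGCGG in 60.9%, against 58.5%, and CCAAT in 28.99%, against 36.4%. By subunit, the ETS letters were in 17 of 42 MRPL promoters and 12 of 27 MRPS promoters. They were in 23 of 47 promoters of members that were higher at DMSO 24 h than at 0 h, in 1 of 6 of those that were lower and in 5 of 16 of the others. The YY1 letters were in 8 of the 47, 1 of the 6 and 4 of the 16. No test was made of these counts. A match describes letters in a window and does not show that a factor binds there.

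The members' summed share of all gene counts was lower at 3 h than at 0 h and higher from 6 h on. They took 0.267%, 0.277% and 0.254% of the counts in the 3 libraries at 0 h, 0.226%, 0.240% and 0.215% at DMSO 3 h, and 0.348% and 0.358% in the 2 libraries at DMSO 24 h. The 3 h libraries all lay below the 0 h libraries, and the 24 h libraries above them. In between, the mean ± SD was 0.301 ± 0.0144% (6 h), 0.321 ± 0.0116% (9 h), 0.324 ± 0.00989% (12 h) and 0.325 ± 0.00885% (15 h; n = 3 each). The 3 h fall is one in shares of library totals. Scaled with TMM factors, the mean log2 CPM over members overlapped between the groups. It was 4.558, 4.661 and 4.48 at 0 h and 4.546, 4.68 and 4.463 at 3 h. With library totals alone, the median log2 change at 3 h was -0.21 for members and -0.27 for all genes tested. The 83 cytosolic ribosomal protein genes had a mean share of 5.18% at 0 h, 4.13% at 3 h and 3.96% at 24 h. MRPL counts were 1.39 to 1.42 times the MRPS counts at 0 h, 1.52 to 1.54 times at 3 h, 1.54 to 1.57 times at 6 h and 1.64 to 1.67 times at 24 h. No released library reached down to the 0 h ratio. The ratio is one of summed counts, so genes with high counts weigh most in it. Single genes also changed their part of a subunit's counts. MRPS27 made up 12.93 ± 0.0499% of all MRPS counts in starved cells, 10.44 ± 0.830% after 3 h, 8.66 ± 0.350% after 9 h and 10.18 ± 0.0861% after 24 h. MRPS18B made up 8.65 ± 0.162% of all MRPS counts in starved cells, 2.69 ± 0.156% after 6 h and 3.71 ± 0.0147% after 24 h. MRPL3 made up 4.76 ± 0.0779% of all MRPL counts in starved cells, 8.74 ± 0.170% after 12 h and 7.69 ± 0.187% after 24 h. MRPL17 made up 1.37 ± 0.178% in starved cells and 3.33 ± 0.238% after 24 h. How much of the change in the ratio lies in these few genes was not tested. With genes assigned by structure in place of symbol, the mean ratio was 1.62 at 0 h, 1.77 at 3 h and 1.88 at 24 h.

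**Figure D1:**
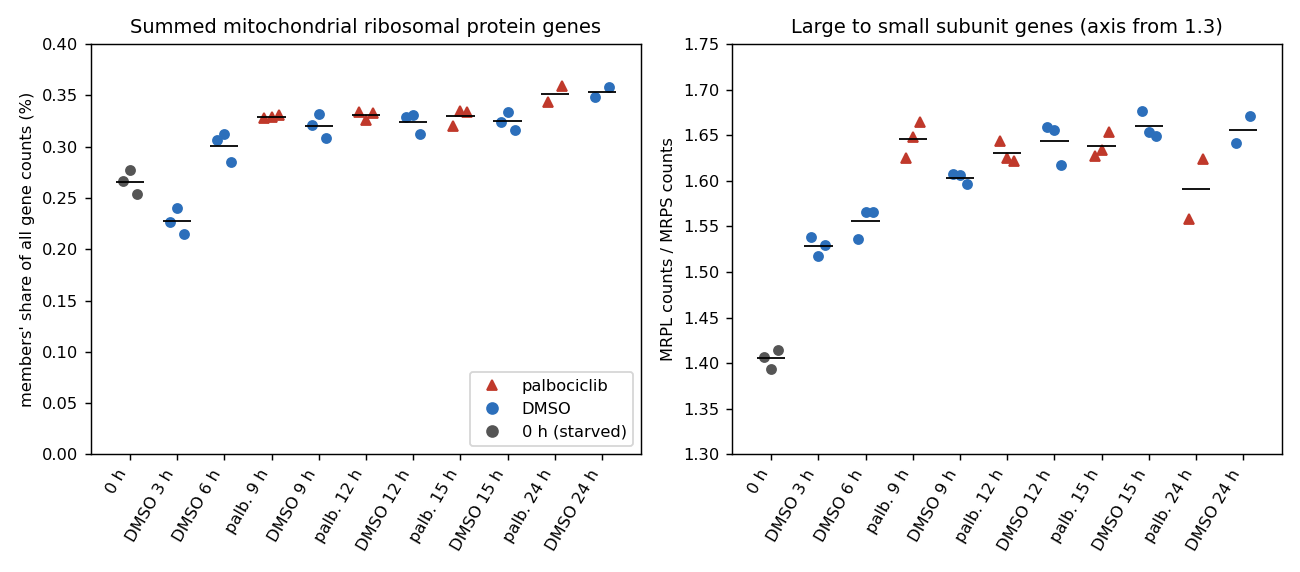
Left, the summed share of the 78 genes in all gene counts (percent) in each of 31 libraries; right, MRPL counts over MRPS counts, on an axis that starts at 1.3. Points are libraries, lines are group means, palbociclib groups (triangles) stand left of DMSO groups of the same hour, and DMSO 3 h is the lowest group on the left at 0.215% to 0.240%.

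Each DMSO time was compared with 0 h to ask which transcripts change as starved cells return to growth, and calls rest on edgeR's quasi-likelihood test with an adjusted p below 0.05. At 3 h the members went both ways: 16 were higher and 19 lower, where 27.8% of all genes tested were called higher and 34.3% lower. At 6 h 42 were higher and 11 lower (34% and 39.4% of all genes), at 9 h 48 and 11 (35.2% and 39.7%), at 12 h 49 and 11 (36% and 39.5%), at 15 h 52 and 10 (37.3% and 39.2%) and at 24 h 55 and 7 (36.7% and 38.7%). The median log2 change of the members at 3, 6, 9, 12, 15 and 24 h was -0.04, 0.27, 0.36, 0.45, 0.49 and 0.62, while that of all genes stayed between -0.10 and -0.06. The changes were mostly below 2-fold: calls of at least 2-fold numbered 11 higher and 1 lower at 6 h (13.8% and 18.5% of all genes), and 18 higher and none lower at 24 h (16.4% and 21.9%). Scaling by library totals alone moved the median of all genes to -0.27 at 3 h, and there 13 members were called higher and 38 lower. The count of lower members at 24 h was 4 without replicate 1 or 2 of 0 h and without either DMSO 24 h library, and that at 12 h was 7 without replicate 1 of 0 h. All 6 comparisons share the 0 h libraries.

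**Figure D2:**
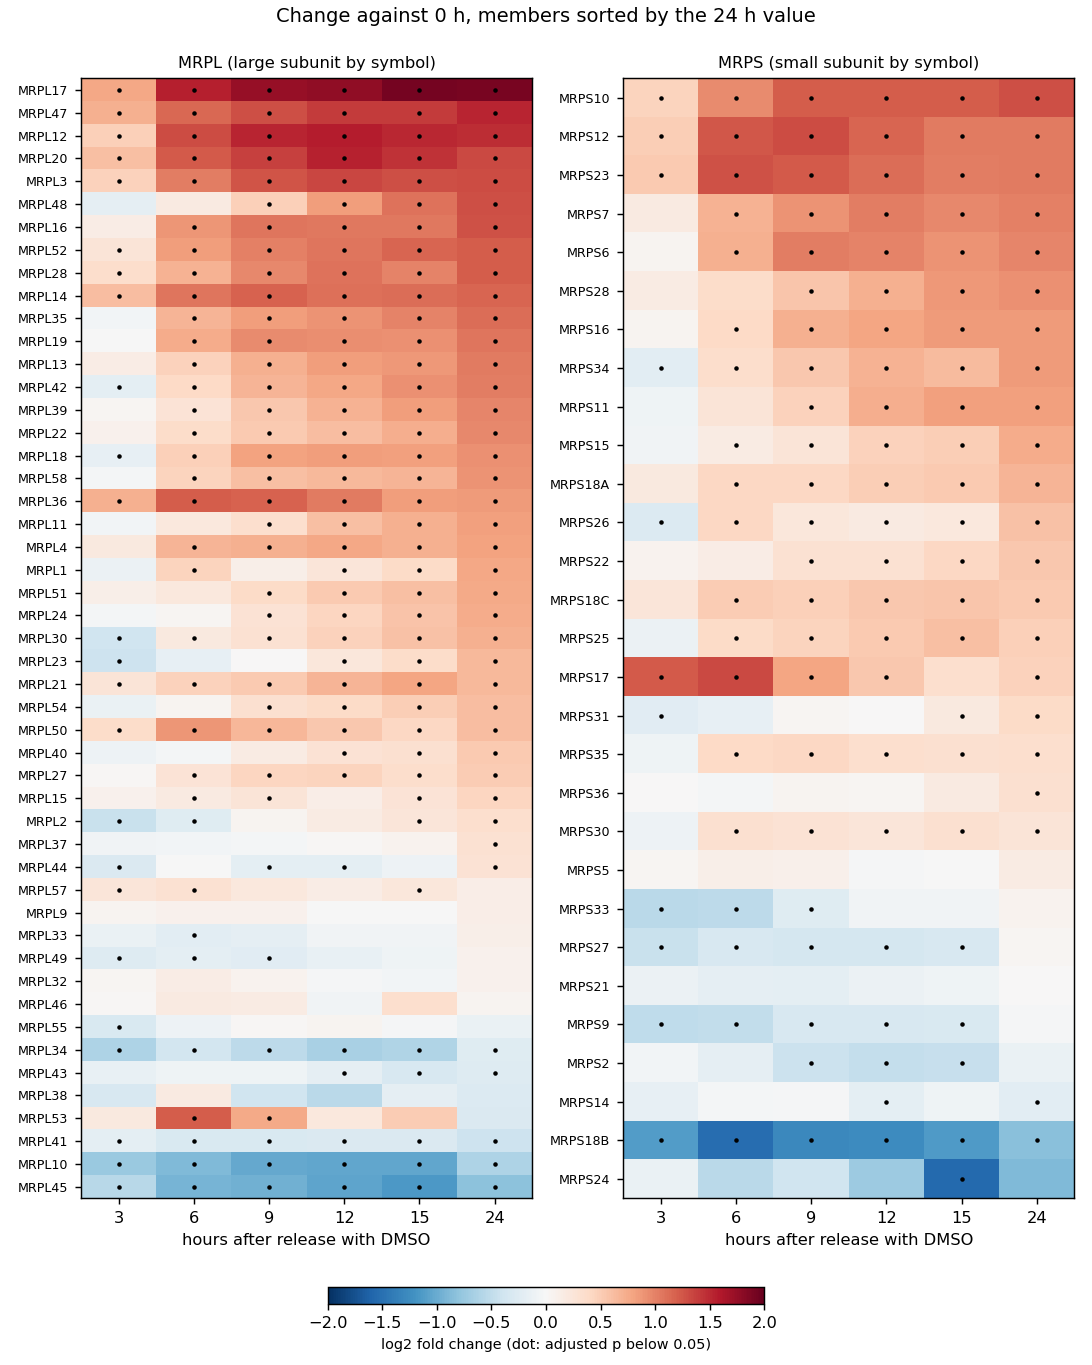
Log2 fold change of each member against 0 h at 6 times after release with DMSO, for MRPL genes (left) and MRPS genes (right), sorted by the 24 h value, with a dot where the adjusted p is below 0.05. Most rows turn red by 6 h, 5 rows are blue with a dot at every time, and the 3 h column is the most mixed, with 16 genes higher and 19 lower.

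Across the 6 times 14 members were higher at every time, 5 were lower at every time and 6 were called at none, where these patterns held for 17.1%, 19.8% and 6.76% of all genes tested. Another 9 were lower at 3 h and higher at 24 h (MRPL2, MRPL18, MRPL23, MRPL30, MRPL42, MRPL44, MRPS26, MRPS31 and MRPS34, named after their values were seen), as were 6.09% of all genes, and 37 were higher at all times from 6 to 24 h, as were 24.6% of all genes. MRPL2 shares 14.7% of its exonic bases with KLC4, and MRPL30 shares 19.5% with other loci. Among the DMSO groups and 0 h, the highest mean fell at 24 h for 44 members, at 0 h for 10 and at 6 h for 9. The lowest mean fell at 0 h for 31 and at 3 h for 29.

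From 9 h on the largest rises were in large subunit genes, while the small subunit gene MRPS17, described below, led at 3 h. MRPL17, the counterpart of bacterial L17, had 69.5 and 80.4 CPM (scaled with TMM factors, as are all member levels below) at 24 h, against 17.1, 23.0 and 20.2 CPM at 0 h. It had already reached 32.7, 40.7 and 28.8 CPM at 3 h, and 55.8, 67.6 and 52.8 CPM at 6 h. Every released library lay above every starved one, and the log2 change was 0.77 ± 0.13 (SE) at 3 h, 1.55 ± 0.13 at 6 h and 1.90 ± 0.14 at 24 h (adjusted p = 1.7e-12). MRPL17 lies on chromosome 11, 6680782 to 6683401 in GRCh38, and shares no exonic base with another gene. MRPL12 encodes the stalk protein that recruits elongation factors to the ribosome and also binds the mitochondrial RNA polymerase. It had 24.7 and 25.1 CPM at 24 h, against 9.04, 8.43 and 9.44 CPM at 0 h, without overlap, and rose by 0.48 ± 0.11 at 3 h, 1.301 ± 0.11 at 6 h and 1.47 ± 0.11 at 24 h on the log2 scale. Of its exonic bases 68.2% are shared with an unnamed locus on the same strand, so its count is uncertain.

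MRPL47, the counterpart of bacterial L29 at the mouth of the exit tunnel, had 46.3 and 47.3 CPM at 24 h, against 16.5, 17.1 and 15.2 CPM at 0 h, a log2 rise of 1.52 ± 0.09. MRPL3, the counterpart of bacterial L3 near the catalytic centre, is also among the most abundant members. It had 166.0 and 179.6 CPM at 24 h, against 70.3, 74.3 and 64.2 CPM at 0 h, a rise of 1.31 ± 0.07. Most of it was in place by 6 h, at 144.9, 148.0 and 129.9 CPM. MRPL20, the counterpart of an early assembly protein of the bacterial large subunit, stood at 19.0, 20.9 and 16.2 CPM at 0 h, 54.4, 59.1 and 49.2 CPM at 12 h (log2 1.54 ± 0.11) and 44.1 and 49.5 CPM at 24 h (1.33 ± 0.12). It shares 15.5% of its exonic bases with other loci. In all 3 genes the released libraries lay above the 0 h libraries at every time.

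MRPL48, which has no bacterial counterpart, rose later than these. It had 8.76, 8.87 and 8.54 CPM at 3 h, with a log2 value of -0.18 ± 0.12 against 0 h that did not pass the test, and 13.7, 14.6 and 13.1 CPM at 9 h (0.48 ± 0.11). Its level was 18.0, 18.6 and 16.3 CPM at 12 h, 21.3, 23.0 and 18.9 CPM at 15 h and 23.3 and 25.1 CPM at 24 h (1.29 ± 0.11), against 9.37, 9.12 and 11.2 CPM at 0 h. It was the 1 member called between 9 and 12 h, by 0.35 ± 0.10, and that call was lost without replicate 1 (0.35) or 3 (0.32) of DMSO 9 h and without replicate 1 (0.34) or 2 (0.31) of DMSO 12 h. MRPL36, the counterpart of a small zinc-binding bacterial protein, peaked early, with 14.5, 16.97 and 15.2 CPM at 0 h, 33.3, 39.4 and 34.5 CPM at 6 h (1.21 ± 0.10) and 26.2 and 30.0 CPM at 24 h (0.86 ± 0.11). MRPL53, which has no bacterial counterpart, was low throughout and transient: it had 2.02, 2.70 and 2.09 CPM at 6 h, against 0.851, 0.923 and 1.19 CPM at 0 h (1.21 ± 0.26), and -0.28 ± 0.34 at 24 h did not pass the test. It shares 45.2% of its exonic bases with CCDC142.

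Among small subunit genes MRPS10, MRPS12 and MRPS23 were higher at all 6 times. MRPS12 shares 16.3% of its exonic bases with SARS2. MRPS10, the counterpart of bacterial S10 and the small subunit gene with the largest 24 h value (named after its values were seen), had 84.6 and 84.8 CPM at 24 h, against 34.2, 38.4 and 31.4 CPM at 0 h, a log2 rise of 1.29 ± 0.07 without overlap. MRPS17, the counterpart of bacterial S17, rose first and then came down. It stood at 4.91, 5.54 and 4.30 CPM at 0 h, at 11.9, 13.2 and 9.22 CPM at 3 h (1.23 ± 0.15, the largest 3 h rise of all members), at 14.5, 12.4 and 10.0 CPM at 6 h (1.32 ± 0.15), at 8.27, 8.02 and 9.23 CPM at 9 h and at 6.60 and 6.93 CPM at 24 h (0.46 ± 0.17). The drop between 6 and 9 h passed the test (-0.54 ± 0.14, adjusted p = 0.0021). MRPS17 shares 27% of its exonic bases with other genes, including GBAS.

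**Figure D3:**
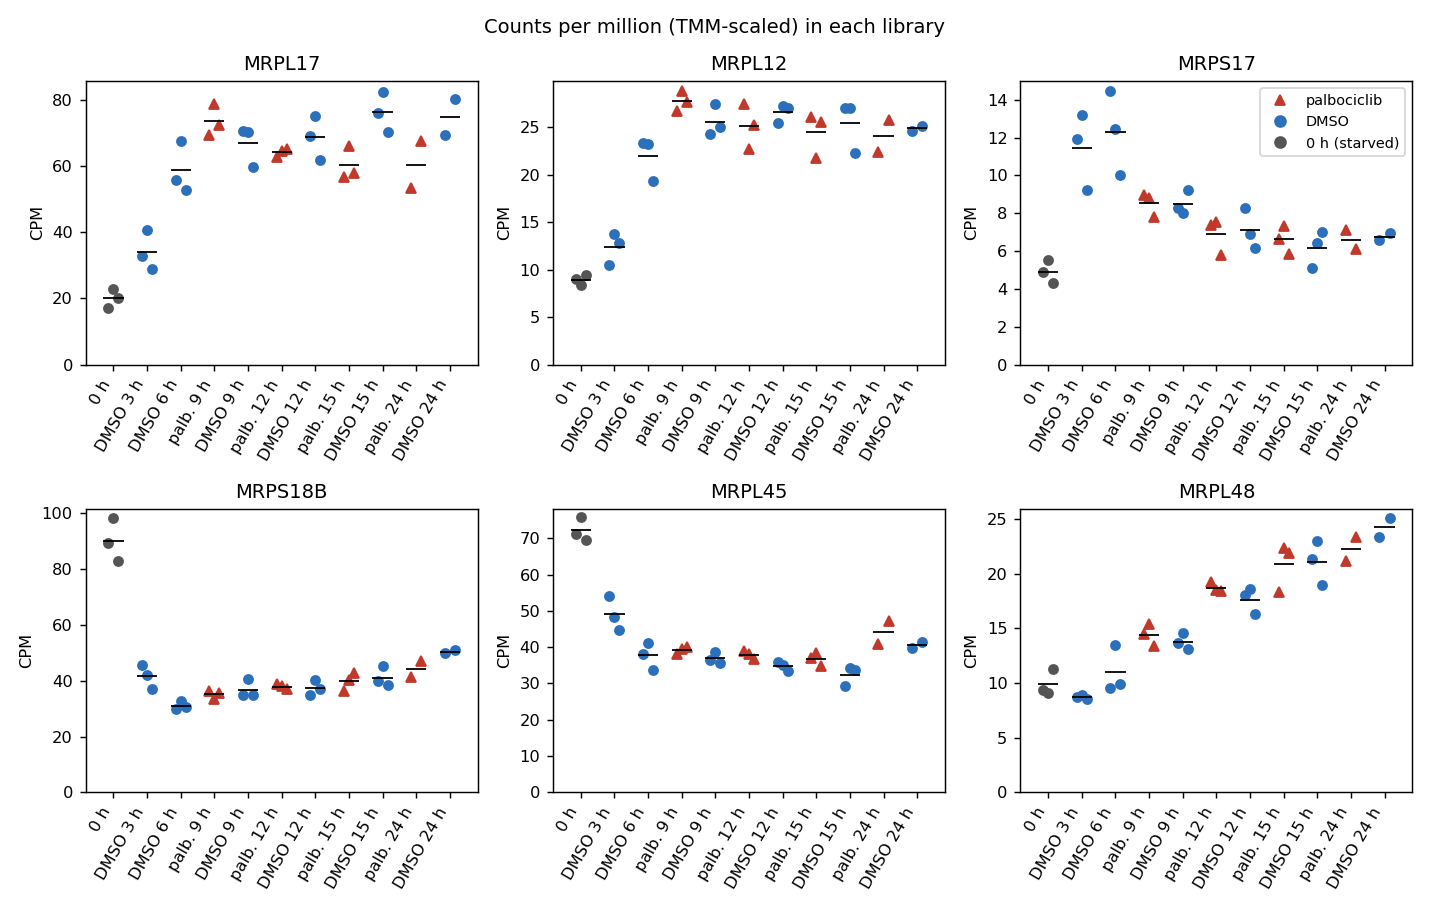
CPM (TMM-scaled) of 6 members in each library, with group means as lines and palbociclib groups (triangles) left of DMSO groups of the same hour. MRPL17 and MRPL12 rise and hold, MRPS17 peaks at 3 and 6 h, MRPS18B and MRPL45 are highest in the 3 starved libraries, and MRPL48 climbs to 23.3 and 25.1 CPM at DMSO 24 h.

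Against this, 5 members were lower than at 0 h at all 6 times: MRPS18B, MRPL45, MRPL10, MRPL34 and MRPL41. MRPS18B had 45.8, 41.9 and 37.0 CPM at 3 h, against 89.3, 98.2 and 83.0 CPM at 0 h, and 29.8, 32.9 and 30.7 CPM at 6 h. It fell by 1.12 ± 0.08 at 3 h and by 1.53 ± 0.08 at 6 h on the log2 scale (adjusted p = 5.1e-19). It came part of the way back, to 49.9 and 50.9 CPM at 24 h (-0.84 ± 0.09), still below every starved library. MRPL45, a mitochondria-specific protein at the exit tunnel that holds the ribosome to the inner membrane, had 29.2, 34.2 and 33.7 CPM at 15 h, against 71.3, 75.8 and 69.6 CPM at 0 h (-1.16 ± 0.07), and 39.8 and 41.5 CPM at 24 h (-0.83 ± 0.08).

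MRPL10 encodes the protein that fixes the stalk, made of MRPL12 copies, to the large subunit, and it moved opposite to MRPL12. It had 26.3, 26.6 and 25.3 CPM at 9 h, against 52.9, 57.7 and 48.1 CPM at 0 h (-1.02 ± 0.07), and 33.2 and 35.7 CPM at 24 h (-0.62 ± 0.08). MRPL41 (50.4 and 47.7 CPM at 24 h, against 66.0, 69.5 and 59.5 CPM at 0 h) and MRPL34 (31.7 and 32.3 CPM, against 37.7, 40.8 and 35.8 CPM) fell less, by 0.41 ± 0.09 and 0.25 ± 0.09, and MRPL34 shares 13.2% of its exonic bases with ABHD8. MRPS27, which encodes an RNA-binding protein of the pentatricopeptide repeat family, was lower at 3 h with 103.5, 97.6 and 95.4 CPM, against 135.1, 143.2 and 125.7 CPM at 0 h (-0.45 ± 0.05), and remained so at 6, 9, 12 and 15 h. At 24 h it stood at 137.1 and 139.1 CPM, inside the 0 h range. MRPS9, the counterpart of bacterial S9, did likewise, with -0.51 ± 0.09 at 3 h, -0.30 ± 0.09 at 15 h and -0.03 ± 0.10 at 24 h, which did not pass the test. MRPS24 was called at 15 h (-1.55 ± 0.53) at 0.445, 0.221 and 0.0745 CPM, against 0.917, 0.635 and 0.657 CPM at 0 h; it shares 23.2% of its exonic bases with a read-through gene, and the call was lost without replicate 1 of 0 h (-1.28) or replicate 3 of DMSO 15 h (-1.18).

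The 3 paralogs of bacterial S18 differed in direction. In the human mitochondrial ribosome, the product of MRPS18C takes the place of bacterial S18, that of MRPS18B sits elsewhere in the small subunit, and that of MRPS18A sits in the large subunit. MRPS18A had 9.79 and 10.4 CPM at 24 h, against 5.50, 8.02 and 5.37 CPM at 0 h (0.68 ± 0.15, adjusted p = 1.3e-04), and shares 47.0% of its exonic bases with RSPH9 on the other strand. MRPS18C had 5.83 and 6.56 CPM at 24 h, against 4.13, 5.71 and 3.17 CPM at 0 h (0.52 ± 0.22), and shares 40.2% with FAM175A on the other strand. Its 24 h call was lost when library totals replaced TMM factors (0.40), when exon length trends were removed (0.44) and without replicate 3 of 0 h (0.33). In fits that leave 1 library at DMSO 24 h its value was 0.51 without the 5 libraries described below and 0.51 without replicate 3 of DMSO 24 h. At 0 h MRPS18B was the most abundant of the 3 by a wide margin, and it shares no exonic base with another gene.

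Both subunits followed the overall course, and the large subunit genes reached the higher medians from 9 h on. Among 49 MRPL genes 12 were higher and 12 lower 3 h after release, 27 and 7 after 6 h, and 35 and 5 after 24 h, with median log2 changes of -0.01, 0.27 and 0.71. Among 29 MRPS genes 4 were higher and 7 lower 3 h after release, 15 and 4 after 6 h, and 20 and 2 after 24 h, with medians of -0.07, 0.32 and 0.48. The difference of the medians, large minus small, at 3, 6, 9, 12, 15 and 24 h was 0.06, -0.05, 0.09, 0.12, 0.24 and 0.23, and no test was made of it. Among the 53 members that share under 10% of their exonic bases it was 0.21 at 6 h and 0.46 at 24 h, and with subunits assigned by structure it was 0.04 at 9 h and 0.18 at 24 h. The 3 h value turned to -0.01 without replicate 1 of 0 h, and the 6 h value to 0.01 without replicate 1 of DMSO 6 h and to 0.03 without replicate 2 of 0 h. Members were also classed by origin, with no test made of the difference. The 45 classed as bacterial had 33 higher and 3 lower at 24 h (median 0.77). The 31 classed as mitochondrial, which include the S18 paralogs MRPS18A and MRPS18B, had 20 higher and 4 lower (median 0.38). At 3 h these counts were 12 higher and 8 lower (median 0.04), and 4 higher and 11 lower (median -0.12). Of all genes tested, 34.3% were called lower 3 h after release, while 27.8% were called higher. Their median log2 change was then -0.10, so the median of the mitochondrial class lay close to that of all genes. For 24 h the all-gene shares were 36.7% higher and 38.7% lower, with a median of -0.09.

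**Figure D4:**
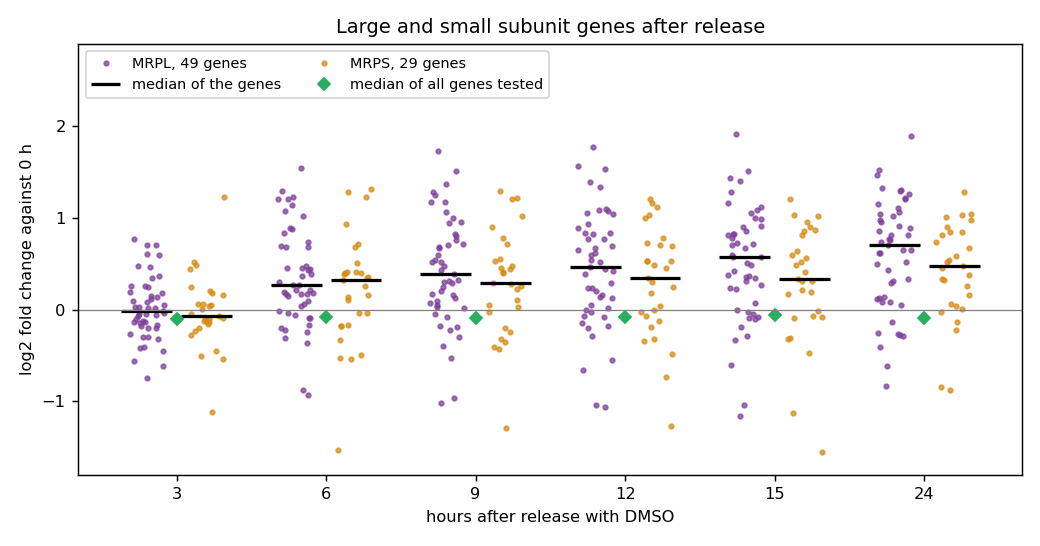
Log2 fold change against 0 h of each MRPL gene (purple) and MRPS gene (orange) at 6 times after release with DMSO, with the median of each subunit as a line and the median of all 15787 genes tested as a diamond. The MRPL median reaches 0.71 and the MRPS median 0.48 at 24 h, while the points of both subunits spread over more than 2 log2 units at every time from 6 h.

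The steps between successive DMSO times were tested as well. Between 3 and 6 h 42 members rose and 2 fell, where 27.8% of all genes rose and 29.7% fell. MRPL12 (0.82 ± 0.10), MRPL17 (0.78 ± 0.12) and MRPL53 (1.02 ± 0.26) rose most, and MRPS18B (-0.41 ± 0.08) and MRPL45 (-0.37 ± 0.07) were the falls. Between 6 and 9 h 15 rose and 4 fell (18.1% and 16.6% of all genes), led by MRPL18 (0.33 ± 0.07), MRPS6 (0.31 ± 0.08) and MRPS16 (0.31 ± 0.06), while MRPL1, which encodes the protein of the L1 stalk, fell by 0.31 ± 0.10. These counts depend on single libraries: 6 rose without replicate 2 of DMSO 9 h and 8 without replicate 3 of DMSO 6 h, and 1 fell without replicate 1 of DMSO 6 h, and 2 without replicate 2 of DMSO 6 h or replicate 3 of DMSO 9 h. MRPS6 was not called without replicate 2 of DMSO 9 h (0.25), nor MRPL1 without replicate 1 (-0.27) or 2 (-0.28) of DMSO 6 h. MRPS16 shares 14.9% of its exonic bases with DNAJC9 and its antisense gene. Between 9 and 12 h the 1 call was MRPL48 (9.09% of all genes rose and 6.19% fell). Between 12 and 15 h edgeR called no member (5.04% of all genes rose and 2.05% fell), with 4 higher and 1 lower at an unadjusted p below 0.05, and DESeq2 also called none.

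Between 15 and 24 h 14 members rose and none fell, where 16.5% of all genes rose, a share close to that of the members, and 13% fell. Without a test, 39 of the 78 members lay wholly above the 15 h libraries and 3 wholly below, against 28.9% and 26.1% of all genes. The median log2 change was 0.13 for members and -0.003 for all genes. MRPL10 rose by 0.42 ± 0.08, MRPL44, which carries an RNase III fold, by 0.40 ± 0.08 and MRPL1 by 0.39 ± 0.11. MRPL44 shares 12.9% of its exonic bases with another locus. MRPS27 rose by 0.35 ± 0.06 and MRPS18B by 0.29 ± 0.09 in the same step, so that several genes that had been below their 0 h level moved back toward it. Without the 5 libraries described below 5 members rose, without replicate 3 of DMSO 24 h 6 did, and without replicate 3 of DMSO 15 h 9 did. MRPL1 was not called without replicate 3 of DMSO 24 h (0.36).

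Levels were compared between members per kilobase of exon. MRPS34, MRPL3, MRPL18 and MRPL15 had the highest mean levels over all libraries, at 58.1, 56.6, 47.0 and 45.7 CPM per kilobase, and MRPS24, MRPL38, MRPL46 and MRPL53 the lowest, at 0.189, 0.484, 0.628 and 0.978 CPM per kilobase. MRPL38 and MRPL46 were also called at no time against 0 h, as were MRPL9, MRPL32, MRPS5 and MRPS21. Of their exonic bases MRPL38 shares 41.1% and MRPL9 38.5% with other loci.

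The palbociclib groups were set against DMSO of the same hour to see whether these transcripts differ when CDK4/6 is inhibited. The drug acted in these cells: E2F1, a driver of S phase genes, was lower by 4.34, 5.69, 5.25 and 2.52 log2 units at 9, 12, 15 and 24 h, and CDC6, a replication licensing factor, by 4.27, 5.38, 4.92 and 2.69. For the mitochondrial ribosomal protein genes edgeR called no difference at 9, 12 or 15 h in either direction, where 0.114%, 0.823% and 2.12% of all genes were called higher and 1.07%, 4.79% and 8.8% lower. At an unadjusted p below 0.05, 8 were higher and none lower at 9 h, 4 and none at 12 h, and 2 and 7 at 15 h. DESeq2 called none at 9 h, 1 higher at 12 h, and 1 higher and 1 lower at 15 h. With edgeR fitted to the compared groups alone 2 were lower at 15 h. The median log2 difference was 0.06 at 9 h, 0.04 at 12 h and 0.01 at 15 h. The 95% interval of the difference lay within 1.5-fold in both directions for 74, 74 and 73 of the 78 members at these times, and for 71 at 24 h. The summed share of the members was 0.328% to 0.331% with palbociclib at 9 h, against 0.308% to 0.332% with DMSO, and 0.343% and 0.359% with palbociclib at 24 h, against 0.348% and 0.358% with DMSO, and at both times the groups overlap. MRPL counts were 1.625 to 1.665 times the MRPS counts with palbociclib at 9 h, all above DMSO (1.596 to 1.607). At 24 h they were 1.558 and 1.624 times, both below DMSO (1.641 and 1.671). At 12 and 15 h the ratios overlapped, and no test was made of them.

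**Figure D5:**
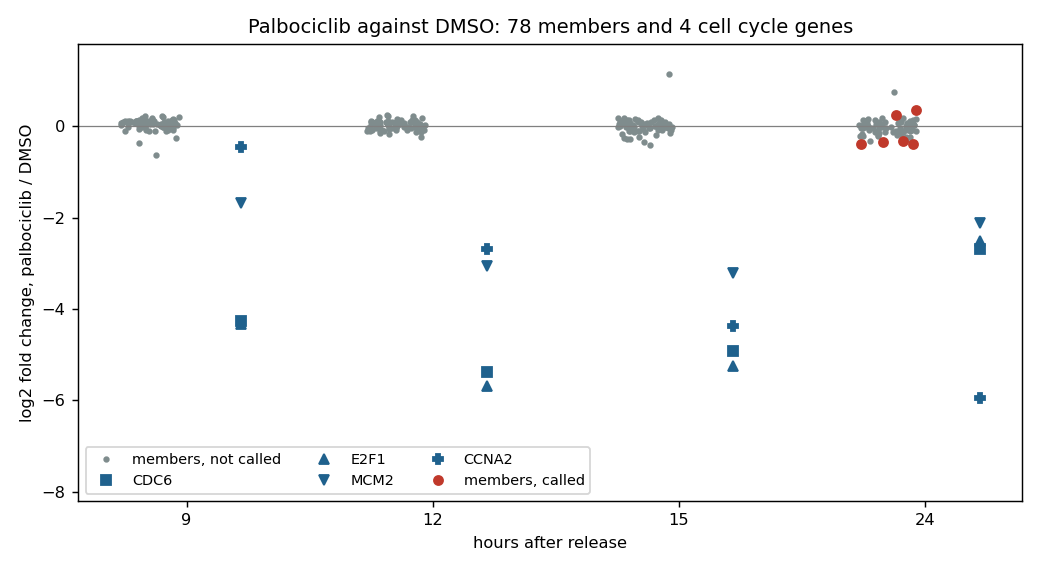
Log2 fold change, palbociclib over DMSO of the same hour, for the 78 members (grey dots, red where called) and for CDC6, E2F1, MCM2 and CCNA2 (blue symbols). The members gather around 0 at all 4 times with 6 called at 24 h, while CDC6 lies at -5.38 at 12 h; the grey dots farthest above 0 are MRPS24 (1.14) at 15 h and MRPL53 (0.75) at 24 h, both low in counts and not called.

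At 24 h 2 members were higher and 4 lower with palbociclib, where 5.66% of all genes were called higher and 12.3% lower. MRPS25, a mitochondria-specific small subunit gene, had 60.7 and 53.9 CPM with palbociclib, against 44.9 and 44.0 CPM with DMSO (0.36 ± 0.08, adjusted p = 0.0015), and shares 22.2% of its exonic bases with NR2C2. MRPL50 had 34.1 and 38.6 CPM, against 30.4 and 31.2 CPM with DMSO (0.24 ± 0.09, adjusted p = 0.048). Both were higher in each palbociclib library than in each DMSO library, as were 10 of the 78 members and 25.2% of all genes tested. In the other direction, 21 members and 28.9% of all genes lay wholly below DMSO.

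The 4 that were lower with palbociclib were MRPS26, MRPL11, MRPS2 and MRPL37. MRPS26 had 36.6 and 39.2 CPM with palbociclib, against 47.9 and 50.8 CPM with DMSO (-0.38 ± 0.10). MRPL11, which encodes the protein at the base of the stalk, had 24.2 and 27.3 CPM, against 32.2 and 35.0 CPM with DMSO (-0.38 ± 0.12). At 15 h it had 24.8, 26.5 and 26.9 CPM, against 30.7, 31.8 and 31.7 CPM with DMSO, again without overlap but with an adjusted p of 0.080. At 15 h 15.7% of all genes tested lay wholly below DMSO. MRPS2, the counterpart of bacterial S2, had 35.2 and 41.7 CPM, against 49.8 and 48.1 CPM with DMSO (-0.34 ± 0.11), and shares 14.4% of its exonic bases with other loci. MRPL37, the fourth and named after its values were seen, had 80.9 and 94.3 CPM, against 108.0 and 110.9 CPM with DMSO (-0.32 ± 0.08).

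These 24 h calls rest on 2 libraries a group. A fit that leaves one of them out keeps 1 library in that group, so a call lost there cannot be told apart from the loss of a library. Without replicate 1 of palbociclib 24 h, or without replicate 3 of DMSO 24 h, no member was called lower, and without replicate 3 of palbociclib 24 h 8 were. A set of 5 libraries, replicate 3 of DMSO 24 h and of the 4 palbociclib groups, was also left out, which keeps 1 library in each 24 h group. They lie on the other side of the within-group axis from replicate 3 of the other groups. In the 24 h groups the 2 scores mirror each other (-11.35 and 11.35 with DMSO, -25.41 and 25.41 with palbociclib), so they cannot tell which library is apart. The largest score of either sign was that of replicate 1 of palbociclib 15 h (-31.64). MRPS25 was not called without replicate 1 of palbociclib 24 h (0.28). MRPL50 was not called without replicate 3 of palbociclib 24 h (0.13) or without replicate 1 (0.21) or 3 (0.28) of DMSO 24 h, and MRPS2 was not called without replicate 1 of DMSO 24 h (-0.34). Without the 5 libraries the differences were -0.43 for MRPL11, -0.41 for MRPS26 and 0.15 for MRPL50. MRPL17, the member with the largest rise after release, had 56.8, 66.1 and 58.0 CPM with palbociclib at 15 h, against 75.9, 82.4 and 70.2 CPM with DMSO; the difference of -0.34 ± 0.12 did not pass the test (adjusted p = 0.065), nor did -0.31 ± 0.14 at 24 h (adjusted p = 0.16). The change of the drug effect itself was tested between 9 and 15 h and between 15 and 24 h. EdgeR called no member in either interaction, where 0.12% and 1.11% of all genes were called higher and 3.93% and 2.02% lower; at an unadjusted p below 0.05 there were 1 higher and 6 lower in the first and 2 and 1 in the second, and DESeq2 called none.

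Other genes of mitochondrial translation were read from lists drawn up by function, and no test was made of the counts per list. Beside them, 27.8% of all genes tested were called higher and 34.3% lower at 3 h. The shares were 34% and 39.4% at 6 h, and 36.7% and 38.7% at 24 h. The 5 proteins of the mitochondrial ribosome whose symbols fall outside the pattern were not called at 3 h and were all higher at each later time, among them AURKAIP1 (1.06 ± 0.10 at 24 h), CHCHD1 (1.00 ± 0.10) and DAP3 (0.43 ± 0.06). Of 28 assembly and ribosomal RNA modification factors 16 were higher and 5 lower at 24 h, and 7 and 12 at 3 h. FASTKD2, an RNA-binding assembly factor, rose by 1.36 ± 0.07 and TFB1M, the methyltransferase of the small ribosomal RNA, by 1.43 ± 0.12 at 24 h, whereas the GTPase NOA1 fell by 1.48 ± 0.08 and the pseudouridine synthase RPUSD4 by 0.94 ± 0.08. Of 16 translation factors 10 were higher and 6 lower at 24 h, with GFM1, an elongation factor, at 1.57 ± 0.08 and MTIF3, an initiation factor, at -0.63 ± 0.12.

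Of 15 genes for mitochondrial transcription and RNA processing 10 were higher and 2 lower at 3 h, and 14 and none at 24 h, including TRMT10C, a subunit of mitochondrial RNase P, which rose by 1.82 ± 0.09 at 3 h. TFAM, which packages mitochondrial DNA, rose by 1.33 ± 0.08 at 24 h and was lower with palbociclib than with DMSO at 15 h (-0.30 ± 0.07) and 24 h (-0.58 ± 0.09). MRM2, which methylates the large ribosomal RNA, was lower with palbociclib at 12 h (-0.34 ± 0.09), 15 h (-0.54 ± 0.09) and 24 h (-0.34 ± 0.11). Of the ribosomal RNAs themselves MT-RNR2 was lower at 24 h than at 0 h (-2.003 ± 0.22) and MT-RNR1 was not called (-1.16 ± 0.81), in libraries selected for poly(A), which hold ribosomal RNA only in part. Of 13 mitochondrial messenger RNAs 3 were higher and 1 lower at 24 h. The cytosolic ribosomal protein genes, 80 of them tested, had 3 higher and 65 lower at 6 h, with a median of -0.30, and 7 higher and 49 lower at 24 h, with a median of -0.26.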

How the data were processed

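The deposited files hold raw read counts per gene name for 31 libraries of the MCF10A cell line. Per the submitters' processing notes, single-end reads were aligned with TopHat 2.1.1 and Bowtie2 2.2.9 to GRCh38.p7, and per the file headers the authors counted exons of GENCODE annotation by gene name with featureCounts from Subread 1.5.1, with no strand option. Groups came from the labels. From these counts, 1 edgeR 4.0.16 quasi-likelihood model (R 4.3.3, TMM factors, filterByExpr) was fitted to all libraries, with p-values adjusted by Benjamini-Hochberg over 15787 genes and a threshold of 0.05. Values after ± are SE for log2 changes. DESeq2 1.42.0, other scalings, no filter, a replicate block, a length correction and left-out libraries were alternatives. Named members were the 3 MRPS18 paralogs and MRPL12, per comparison up to 3 called in each direction with the largest change, the 4 highest and 4 lowest per kilobase, members called at no time against 0 h and those called against the majority at 4 or more of 6 times; context genes were up to 2 called per list, direction and comparison by smallest p, besides the marker genes. MRPS10, MRPS12, MRPS23, MRPL37 and other members or context genes outside this rule were chosen after their values were seen. Library totals of 10342358 to 20878364 limit low genes most. Members and gene lists were chosen with earlier results of these data known. Steps were tested on simulated data.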

Additional observations from a re-analysis of the deposited data

How the results depend on the processing

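The member median against 0 h kept its direction at 6 to 24 h under the alternatives run; at 3 h, where it was -0.04, it was 0.05 in a fit of the compared groups alone and 0.04 without replicate 1 of 0 h. With library totals in place of TMM factors 38 members were lower at 3 h and 17 at 15 h, 2 rose between 9 and 12 h, and with palbociclib 1 was higher at 12 h and 1 lower at 15 h. With DESeq2 size factors 1 was higher with palbociclib at 12 h. With no filter on low counts 1 was higher with palbociclib at 24 h. With the exon length trend removed the subunit difference (large minus small) was -0.0866 at 6 h and 0.27 at 24 h, 3 members rose between 9 and 12 h, and with palbociclib 1 was higher at 12 h, 1 lower at 15 h and 9 lower at 24 h. In fits of the compared groups alone 12 were lower at 3 h, 4 rose between 9 and 12 h, 2 were lower with palbociclib at 15 h, 1 higher at 24 h, and 2 lower in the interaction of 15 with 9 h. Without the 5 libraries (replicate 3 of DMSO 24 h and of the palbociclib groups) each 24 h group keeps 1 library. The member median was then 0.67 at 24 h against 0 h, 0.085 between 15 and 24 h and -0.066 with palbociclib at 24 h. The DESeq2 test called with palbociclib 1 higher at 12 h, 1 higher and 1 lower at 15 h, and 1 higher at 24 h.

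By structure the subunit difference was 0.0377, 0.0621, 0.15 and 0.18 at 9, 12, 15 and 24 h. Among members sharing under 10% of their bases it was 0.12, 0.21, 0.28, 0.41, 0.45 and 0.46 at 3, 6, 9, 12, 15 and 24 h, against -0.05 at 6 h over all members; the cause was not tested.

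Leaving out single libraries gave subunit differences of -0.00786 to 0.0566 at 3 h, -0.0706 to 0.0285 at 6 h (0.00796 without replicate 1 of DMSO 6 h), 0.0356 to 0.10 at 9 h, 0.11 to 0.18 at 12 h, 0.13 to 0.24 at 15 h and 0.19 to 0.25 at 24 h. It gave 7 to 13 members lower at 12 h and 4 to 8 at 24 h, 6 to 22 higher and 1 to 6 lower between 6 and 9 h, 0 to 3 and 0 to 1 between 9 and 12 h, and 6 to 15 and 0 to 1 between 15 and 24 h. With palbociclib it gave 0 to 1 higher at 12 h, 0 to 1 lower at 15 h, and 1 higher and 0 to 8 lower at 24 h.

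With the replicate number as a block 4 members rose between 9 and 12 h, 1 fell between 12 and 15 h, 26 rose between 15 and 24 h, 2 were higher with palbociclib at 12 h, 3 lower at 15 h, 8 lower at 24 h, and 1 lower in the interaction of 15 with 9 h. Deviations of same-numbered libraries correlated at -0.249 to 0.422. Within 0 h and DMSO 3 to 15 h all were positive, at 0.114 to 0.422 for replicates 2 and 3. Every negative value involved DMSO 24 h or a palbociclib group. The labels do not say that the numbers mark pairs, and the main fit did not take them as pairs. Low counts limit MRPS24 and MRPL53 most.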
